A study of Homo sapiens with 3 samples.

Results

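The 8 genes described here encode proteins that make, store, release or sense TGFβ: the ligands TGFB1 and TGFB2, the latent TGFβ binding protein family members LTBP1, LTBP2 and LTBP3, the activator THBS1, and the receptors TGFBR1 and TGFBR2. Each gene was represented by its hg19 gene body, given to the nearest kb, extended by 50 kb on each side, and every SMAD2/3 peak overlapping such a window was taken. This gave 11 of the 2206 peaks listed at 1.5 h and 7 of the 3280 listed at 16 h, or 18 of 5486 in all. The cells were MCF10A MII, a human breast epithelial line transformed with H-Ras. Both ChIP-seq libraries came from cells stimulated with 5 ng/ml TGFβ3, for 1.5 h or for 16 h, and were precipitated with an antibody against SMAD2 and SMAD3. An input DNA library of untreated cells completed the 3 samples and was not analysed here, and there was no ChIP from unstimulated cells. Each time had 1 library, so no value below has a replicate error and no difference was tested. The reads behind a peak and the sequencing depth are unknown from the lists.

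TGFβ is secreted in a latent form, in which the mature ligand stays wrapped in its own propeptide. LTBP1 and LTBP3 bind this complex and tether it in the extracellular matrix, whereas LTBP2, their close relative in matrix microfibrils, does not bind latent TGFβ. Thrombospondin 1, the product of THBS1, can release the active ligand. Active TGFβ binds TGFBR2, which phosphorylates TGFBR1, and TGFBR1 in turn phosphorylates SMAD2 and SMAD3, which move to the nucleus with SMAD4 and bind DNA.

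SMAD2/3 peaks lay at 4 of the 8 genes and were concentrated at LTBP2. LTBP2 had 7 peaks at 1.5 h and 4 at 16 h (2 and 3 within the gene body, and 2 and 4 at a score of at least 100), LTBP1 had 3 and 2, TGFBR2 had 1 at 1.5 h, and TGFB1 had 1 at 16 h. No peak was listed at either time in the windows of LTBP3, THBS1, TGFBR1 and TGFB2, although a site listed at both times lay just outside the TGFB2 window. Windows with a peak numbered 3 of 8 at 1.5 h, 3 of 8 at 16 h and 2 of 8 at both times. For comparison, the chromosomes were tiled from end to end with 18232 stretches of 168.5 kb, the median width of the 8 windows. Of these tiles, 7.85% held a 1.5 h peak, 14.0% held a 16 h peak and 3.37% held both. The windows themselves ranged from 117 kb for THBS1 to 553 kb for LTBP1, and the tiles include stretches without genes. The genes were also chosen with earlier results of these data known, so the tiles do not test whether these windows hold more peaks. The 7 windows other than that of LTBP2 held 4 peaks at 1.5 h and 3 at 16 h.

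**Figure D1:**
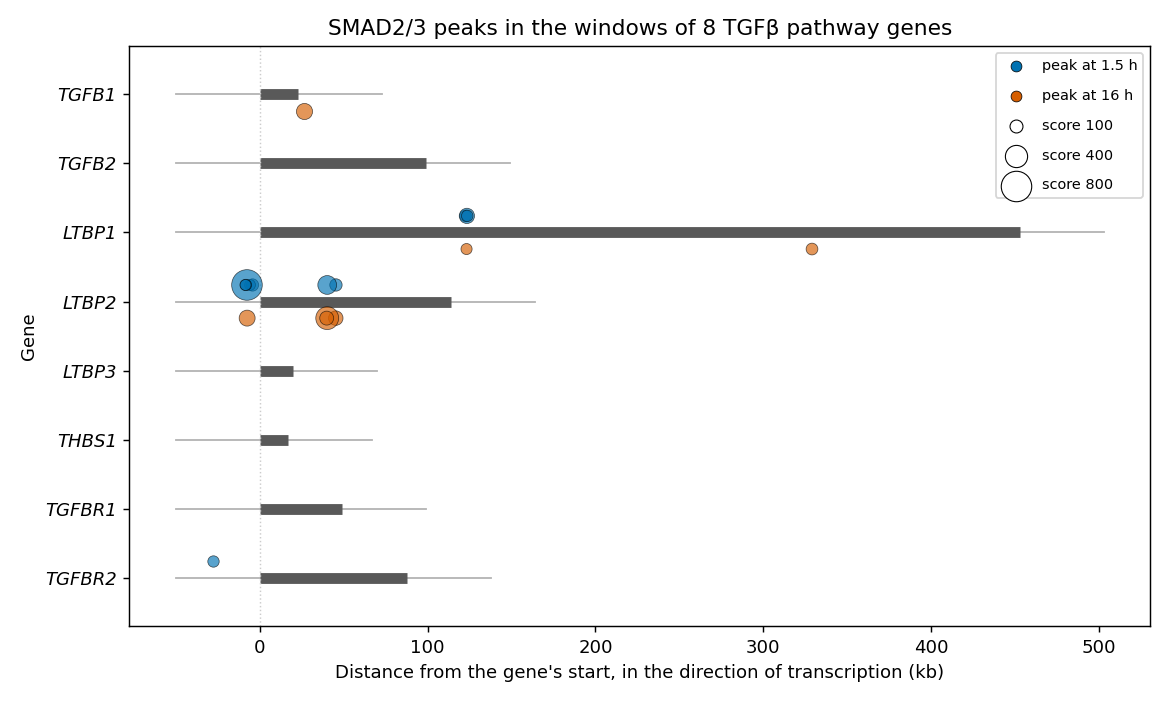
SMAD2/3 peaks in the 8 windows. Each row is a gene, aligned at its start and drawn in the direction of transcription in kb, with the gene body as a thick bar and the extension of 50 kb as a thin line; blue circles above the bar are 1.5 h peaks, orange circles below it are 16 h peaks, and circle area grows with the authors' score. LTBP2 carries 7 and 4 peaks, and LTBP3, THBS1, TGFBR1 and TGFB2 carry none.

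The peaks were of mixed height. The authors' MACS score, which is higher for stronger enrichment and was used to rank peaks within a list, ran from 56.3 to 809 at 1.5 h with a median of 71.2 over the 11 window peaks, and from 60.1 to 427 at 16 h with a median of 139 over the 7. The medians of the whole lists were 64.9 and 56.2. A score of at least 100 was reached by 3 of the 11 window peaks at 1.5 h, where 20.1% of all peaks reached it, and by 5 of the 7 at 16 h, where 11.5% did. All 5 high-scoring 16 h peaks belonged to LTBP2 (4) and TGFB1 (1). The larger number of window peaks at 1.5 h therefore came from peaks scoring below 100. At a score of at least 100 the counts were 3 and 5. Scores of different libraries are not on a common scale, so this order does not compare the times. Among the 5, the LTBP2 peaks scoring 427 and 125 lay 24 bp apart. Within the gene bodies alone the window peaks numbered 5 and 5.

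Listed at both times, by an overlap of at least 1 bp, were 3 of the 11 window peaks at 1.5 h and 3 of the 7 at 16 h, against 25.3% and 16.6% of all peaks in the respective lists. All of them were at LTBP2. At 1.5 h, 10 of the 11 window peaks had another 1.5 h peak within 10 kb, as did 41.8% of that list. At 16 h, 3 of the 7 did, as did 20.5% of that list. The window peaks with such a neighbour were all at LTBP1 and LTBP2, so they are not independent of each other.

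**Figure D2:**
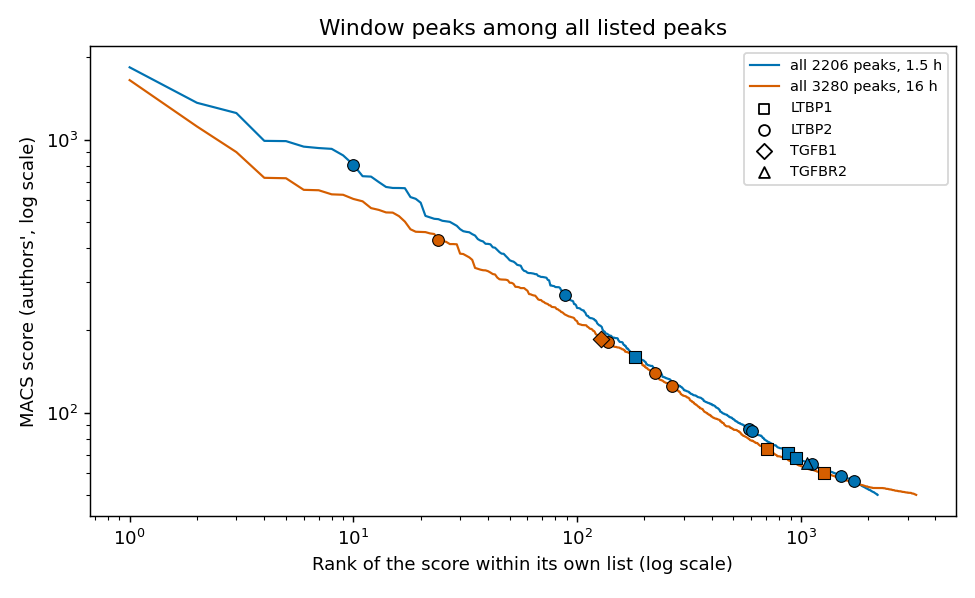
Scores of the window peaks among all listed peaks. Both axes are logarithmic: the x axis is the rank of a peak's score within its own list and the y axis the authors' score; lines are all 2206 peaks at 1.5 h (blue) and all 3280 at 16 h (orange), and symbols are the window peaks of the 4 genes that have any. The highest LTBP2 peak ranked 10 at 1.5 h and another LTBP2 peak ranked 24 at 16 h, while the only TGFBR2 peak ranked 1065.

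LTBP2 (chr14, body 74965 to 75079 kb, transcribed towards lower coordinates) had SMAD2/3 peaks in 2 places, a cluster upstream of its start and a pair of sites within the gene. The upstream cluster dominated at 1.5 h and the sites within the gene at 16 h. Only unnamed RefSeq loci (LOC101928352, LOC105370567 and LOC100419503, on GRCh38) lie between LTBP2 and AREL1, the next named protein-coding gene on the upstream side.

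The main upstream peak spanned chr14:75086127-75087037 at 1.5 h, 7.1 kb before the LTBP2 start. It was 911 bp wide and scored 809, rank 10 of 2206. At 16 h the same site was listed as chr14:75086336-75086650, which lies wholly inside the earlier interval, 315 bp wide and with a score of 181, rank 138 of 3280. It was therefore high in both lists, with 0.408% of 1.5 h peaks and 4.18% of 16 h peaks scoring higher, but led only the earlier one among the LTBP2 peaks.

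At 1.5 h this upstream peak was flanked by 4 lower ones, and the 5 together spanned 4.3 kb. On the side nearer to the gene were chr14:75083219-75083452, which scored 85.4, and chr14:75084771-75084929, which scored 56.3. On the far side were chr14:75087115-75087261 with 64.7 and chr14:75087407-75087546 with 58.8. The far pair lay 77 bp from the main peak and 145 bp from each other. None of the 4 overlapped a 16 h peak, and the main peak was the only upstream one listed at 16 h. The scores of 56.3 and 58.8 were near the lowest score listed, 50.02, that of 64.7 was near the list's median of 64.9 and that of 85.4 was above it. The 16 h list does not tell absent signal from signal below its threshold.

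Within LTBP2, the stronger site was about 40.2 kb downstream of the start. It was listed as chr14:75038667-75039007 at 1.5 h, with a width of 341 bp and a score of 271 (rank 88), and as chr14:75038612-75039014 at 16 h, with a width of 403 bp and a score of 427 (rank 24). A further 16 h peak at chr14:75039039-75039195, which scored 125, began after a gap of 24 bp and overlapped no 1.5 h peak. The weaker site, about 45.3 kb downstream of the start, was listed as chr14:75033420-75033712 at 1.5 h with a score of 87.3 and as chr14:75033436-75033883 at 16 h with a score of 139. Whether these sites are exonic or intronic was not determined, since no hg19 exon annotation was used here.

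Set against each other within a library, the upstream and the gene-body site of LTBP2 exchanged their order between the times. At 1.5 h the highest upstream score was 2.99 times the highest score inside the gene, 809 against 271. At 16 h the highest score inside the gene was 2.36 times the upstream one, 427 against 181. Scores of different libraries are not on a common scale, so the sites were also ranked among the 494 one-to-one pairs of overlapping peaks, which are the same pairs at both times. In that ranking the upstream site stood at 10 at 1.5 h and at 111 at 16 h, the stronger gene-body site at 76 and at 23, and the weaker one at 288 and at 163. Over all 494 pairs such movements were common, with a median absolute shift of 102.5 places. That shift counts rises and falls together, and falls alone were not counted over all pairs. For the 20 pairs ranked highest at 1.5 h, the median rank at 16 h was 20. Of these 20, 5 stood at 111 or lower in the order at 16 h, the LTBP2 upstream site included. With 1 library per time, the exchange has no replicate check.

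**Figure D3:**
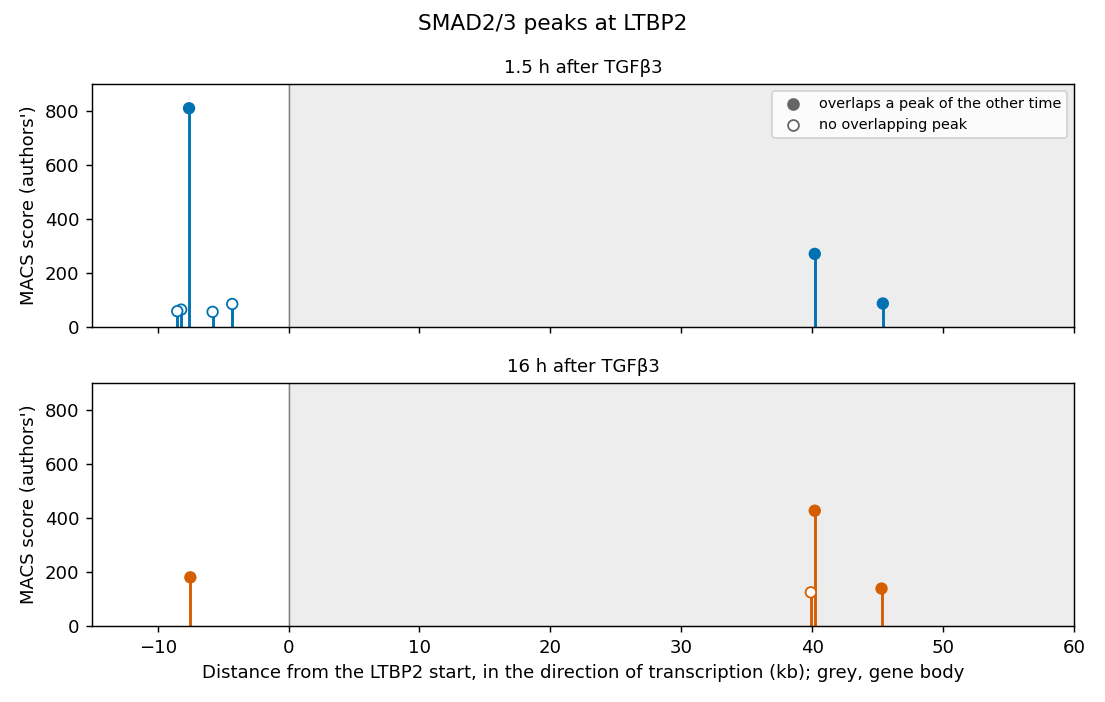
SMAD2/3 peaks at LTBP2 at 1.5 h (top) and 16 h (bottom). The x axis is the distance in kb from the gene's start in the direction of transcription, with the gene body in grey, and the y axis is the authors' score; filled points overlap a peak of the other time and open points do not. The upstream site scores 809 and then 181, and the site about 40.2 kb inside the gene scores 271 and then 427.

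The RefSeq promoter of LTBP2, from 250 bases before to 50 bases after its start, is shown because the cluster lies upstream of it. No listed peak covers it: the nearest, at 1.5 h, lies 4.2 kb upstream of the start. The sequence is from GRCh38.p14 (chr14:74612188-74612487, minus strand), a different build from that of the peaks, and is written 5′ to 3′ with the match to the SMAD box core CAGAC in capitals.
LTBP2 promoter: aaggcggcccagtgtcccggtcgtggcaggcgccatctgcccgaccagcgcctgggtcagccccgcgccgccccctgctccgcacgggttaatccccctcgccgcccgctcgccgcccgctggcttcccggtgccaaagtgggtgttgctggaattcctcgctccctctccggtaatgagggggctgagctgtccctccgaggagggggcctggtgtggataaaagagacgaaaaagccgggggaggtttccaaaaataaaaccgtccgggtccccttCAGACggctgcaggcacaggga
The only match, searched on both strands, begins 29 bases into the transcribed part, counting the start as 1. CAGAC occurred on either strand in 45.3% of the 35116 promoter windows of the same length, so a match is common. The AP-1 motif TGANTCA, present in 7.71% of all windows, was not found in this one. All 8 genes matched the promoter table, with 19 windows, since some genes have several starts. Of these windows 11 held CAGAC and 1, at TGFBR2, held TGANTCA. TGFBR1 alone has 8 of the 19, and some windows of the same gene overlap, so 1 match can count more than once. The peaks' own sequences were not examined, as no hg19 genome was used here.

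LTBP1 (chr2, body 33172 to 33625 kb, transcribed towards higher coordinates) had a single narrow region with peaks at both times, together with a site listed only at 16 h. The region lay about 123 kb downstream of the start, inside the gene. At 1.5 h it held 3 peaks within 1.0 kb. The middle one, chr2:33295275-33295488, scored 160 (rank 182) and was flanked by chr2:33294566-33294661 with 71.2 and chr2:33295506-33295610 with 68.0. At 16 h a single peak, chr2:33295151-33295268, scored 60.1 (rank 1265). It fell between the 1.5 h peaks and ended 6 bp before the middle one, so by the overlap of at least 1 bp none of the LTBP1 peaks counted as shared, whereas within 500 bp all 3 early peaks and this late peak did. RefSeq lists 3 promoter windows for LTBP1. The distances given here are from the outermost start of the gene body. On GRCh38 the outermost window begins at chr2:32946703 and the others at chr2:33134119 and chr2:33134346. These other starts lie farther into the gene body than the region does, so the region is upstream of them.

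The second LTBP1 site at 16 h, chr2:33500908-33501015, lay 329 kb downstream of the start. It was 108 bp wide and scored 73.8 (rank 704), above the 60.1 of the other late peak. The nearest 1.5 h peak was 205 kb away. Neither late LTBP1 peak reached a score of 100. LTBP3, the other family member that binds latent TGFβ, had no peak in its window (chr11, body 65306 to 65326 kb). The nearest peaks lay 156 kb from the gene at 1.5 h, with a score of 61.9, and 357 kb away at 16 h, with a score of 53.3.

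Of the ligand genes, TGFB1 (chr19, body 41837 to 41860 kb, transcribed towards lower coordinates) had a peak at 16 h only. It spanned chr19:41833624-41834213, 2.8 kb beyond the 3′ end of the gene. With 590 bp it was the widest 16 h peak of the windows, and its score of 186 ranked 128 of 3280. The nearest 1.5 h peak of any score was 101 kb from it. The next gene on that side is CCDC97, which RefSeq places on the opposite strand, so the site lies on the side where both genes end, and the list does not tie it to either of them.

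TGFB2 (chr1, body 218519 to 218618 kb, transcribed towards higher coordinates) had no peak within its window, but a site listed at both times missed the window by about 2 kb. At 1.5 h it was listed as chr1:218669987-218670234, 52.0 kb beyond the 3′ end, with a score of 161. At 16 h it was listed as chr1:218670090-218670241, 52.1 kb beyond that end, with a score of 52.4, near the lowest score of the list. Among the 494 pairs it ranked 131 at 1.5 h and 463 at 16 h. The peaks farthest from a gene that still counted were the single TGFBR2 peak, 27.5 kb out, and the LTBP2 cluster, up to 8.4 kb out.

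The activator gene THBS1 (chr15, body 39873 to 39890 kb) had no peak in its window at either time. The nearest site lay 384 kb upstream and was listed at both times. It spanned chr15:39488364-39488836 with a score of 223 at 1.5 h and chr15:39488306-39488542 with a score of 152 at 16 h.

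Of the receptor genes, TGFBR2 (chr3, body 30648 to 30736 kb, transcribed towards higher coordinates) had 1 peak, at 1.5 h, at chr3:30620309-30620456. It lay 27.5 kb upstream of the start, was 148 bp wide and scored 65.7, with 48.2% of the 1.5 h peaks scoring higher. The nearest 16 h peak was 1752 kb from it. A second 1.5 h peak, chr3:30553129-30553252 with a score of 76.0, lay outside the window, 94.7 kb upstream. TGFBR1 (chr9, body 101867 to 101916 kb) had no peak in its window. The nearest peaks were 1120 kb upstream at 1.5 h and 643 kb downstream at 16 h, with scores of 54.97 and 50.9, so the gene of the receptor that phosphorylates SMAD2 and SMAD3 lay in a stretch of over 1 Mb without a listed peak.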

How the data were processed

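The authors deposited 1 peak list per ChIP library, on hg19, as intervals without a header and with a MACS score in the last column. Bowtie 1.1.0, Picard and MACS 1.4.2 are named in the submitters' processing notes. How they were run, and whether the input served as control, is not given in the sources used here. In the deposited lists the lowest scores, 50.02 at 1.5 h and 50.0 at 16 h, equal minus 10 times log10(p) at a p of 1e-05. A fixed threshold lists more peaks from a deeper library, so absence from a list is not absence of binding.

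Starts were made 1-based. Windows came from the stated hg19 gene bodies. Their lengths differed from RefSeq's on GRCh38 by at most 1.5 kb, and distances to genes are accurate to about 1 kb. Gene orientation, neighbour names and the promoter came from RefSeq GRCh38.p14, and no coordinate was converted. Other genes of the pathway were not placed, for lack of hg19 positions. All 8 genes were reported, and no test was run. The members, windows and comparisons were chosen with earlier results of these data known. Tiles covered each chromosome up to its last listed peak. One-to-one pairs were peaks that were each other's longest overlap. The overlap code was tested on simulated data. Calculations used Python 3.11.15, numpy 2.4.6, pandas 2.3.3 and matplotlib 3.10.9. Alternatives varied the window, the score minimum, the list length, merging and the overlap rule.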

Additional observations from a re-analysis of the deposited data

How the results depend on the processing

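A set of 9 other settings, and 1 added after the data were seen (without LTBP2), was applied to the counts of window peaks, of genes with a peak and of shared window peaks. With gene bodies alone, 5 peaks were left at 1.5 h, against 11. With a score of at least 100, 3 peaks were left at 1.5 h and 1 gene had a peak at both times, against 2. Counting peaks within 500 bp of each other as shared gave 7 shared peaks at 1.5 h and 5 at 16 h, against 3 and 3. The share of all listed peaks under this wider rule is not given here. The 25.3% and 16.6% above are for an overlap of at least 1 bp, so they cannot be set beside 7 and 5. Without LTBP2, 4 peaks were left at 1.5 h and 3 at 16 h, 1 gene had a peak at both times, and 0 peaks were shared at either time. The other counts stayed within 1.5 times their values, among them those with extensions of 25 and 100 kb, merged neighbours, equal list lengths, a score minimum of 60 and a reciprocal overlap of 50%. Of 126 counts for single genes, 11 moved further than that. LTBP2, with 7 peaks at 1.5 h and 4 at 16 h, had 2 and 3 with gene bodies alone. With a score of at least 100 it had 2 and 4. The later time had more in both settings, but a score of 100 is not an equal cut in the 2 libraries. LTBP1, with 3 and 2, had 1 and 0 with a score of at least 100. The TGFB1 peak was lost with gene bodies alone. The TGFBR2 peak was lost with gene bodies alone, with 25 kb and with a score of at least 100. With 100 kb, TGFB2 gained 1 peak at each time and TGFBR2 had 2 at 1.5 h. With equal list lengths, ties at the last score left 2324 peaks at 16 h. No paired analysis was possible because there was a single library at each time, and none could be omitted. Without known depth, whether a site listed at 1 time was bound at the other was not tested.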
